A study of Mus musculus with 36 samples.

Results

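The effect of losing the DNA methyltransferase gene Dnmt3a was read in hematopoietic stem cells (HSCs) by comparing the transcripts of Dnmt3aKO HSCs with those of Control HSCs, 3 RNA libraries against 3. These 6 libraries, taken by the genotype, cell type and number in the sample titles, are 6 of the 36 samples of the study and 6 of the 18 RNA libraries with counts. All mice were C57BL/6, 8 weeks old, and carried the Vav-driven Cre recombinase, so Cre is shared by every group. Control mice were Vav-CRE with Dnmt3a+/+ and Tet2+/+ alleles. The knockout mice carried loxP-flanked (fl) alleles, Tet2fl/fl for Tet2KO, and for Dnmt3aKO the labels write "Dnmt3afl/fl or +", which leaves the number of deleted Dnmt3a alleles unsettled. HSCs were sorted from bone marrow as Lin-, cKit+, Sca1+, CD150+, CD48- cells. Tet2KO HSCs (4 libraries) enter where levels are set across both mutants, and restricted progenitors (RPs; 4 Control and 4 Tet2KO libraries) serve as libraries outside the comparison.

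DNMT3A places methyl groups on previously unmethylated cytosines, and TET2 oxidises methylated cytosine as a step towards its removal. HSCs renew themselves and give rise to all blood lineages. In mice, loss of either enzyme in blood-forming cells is known to favour self-renewal of HSCs, and both genes are recurrently mutated in clonal hematopoiesis. Vav regulatory sequences drive Cre throughout the blood system from fetal life, so the deletion precedes the adult HSC.

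Each library was made from a pool, described in one place of the labels as 2 male and 2 female mice and in another as 3 and 3. Each p-value thus reflects how much pools varied, not single mice. Control HSC libraries 2, 3 and 4 held 4949973, 6453611 and 6230515 counts, and Dnmt3aKO HSC libraries 1, 2 and 4 held 7209032, 4625653 and 6892304. The table gives counts per Ensembl transcript, and no source used here pairs these identifiers with genes. Levels of Dnmt3a itself, of HSC markers and of markers of other cells were therefore not checked, and no role can be given for a transcript. The labels of genotype and cell type rest on the sample titles alone. Transcripts are named by identifier, at most 2 in each direction for a comparison.

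Dnmt3aKO library 4 stood apart from the other Dnmt3aKO libraries, and Control library 4 less so from the other Controls. Dnmt3aKO library 4 had counts for 28667 transcripts, against 41494 and 40118 in libraries 1 and 2, and Control library 4 for 34373, against 35290 and 41781. The 100 most abundant transcripts took 37.5% and 34.7% of the counts of Dnmt3aKO and Control library 4, and 28.5% to 29.2% in the other 4 libraries. Over the tested transcripts, Dnmt3aKO library 4 had Spearman correlations of 0.728 and 0.756 with the other Dnmt3aKO libraries, which correlated at 0.826 with each other. It was closer to Control library 4, at 0.783. It was the library of its group farthest from the others for 47.8% of transcripts. Control library 4 had correlations of 0.771 and 0.805 with Control libraries 2 and 3, which correlated at 0.825, and was the farthest for 36.5% of transcripts, against 35.3% for library 2. Tet2KO HSC library 4 also stood apart, with counts for 36037 transcripts against 45252 to 51359 in Tet2KO libraries 1 to 3. It correlated at 0.751 to 0.767 with those libraries, which correlated at 0.804 to 0.815 with each other. Its correlation was 0.796 with Control library 4 and 0.762 with Dnmt3aKO library 4. With Control library 3 it was 0.797 and with Dnmt3aKO library 2 0.801, so by this measure it was not closest to the libraries numbered 4. The counts of calls and the named transcripts are given below with and without the HSC libraries numbered 4, that of Tet2KO included.

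In Dnmt3aKO HSCs 4 transcripts differed from Control HSCs, 1 higher and 3 lower, and all 3 lower ones were at or near 0 in every Dnmt3aKO library. Calls come from the quasi-likelihood test of edgeR at a Benjamini-Hochberg adjusted p under 0.05 over 26820 transcripts. The 4 are 0.0149% of the transcripts tested, with 0.00373% called higher and 0.0112% called lower. The libraries of both groups did not overlap for any of the 4, against 7.96% of all tested transcripts without overlap. A call made on the same libraries favours such transcripts. The spread behind the calls was estimated over all 18 RNA libraries. When only the 6 libraries compared were fitted, edgeR called 0 of 18591 transcripts. Levels are counts per 1000000 (CPM) of the library size scaled by TMM.

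The higher transcript, ENSMUST00000121886.7, was at 184, 241 and 366 CPM in Dnmt3aKO libraries 1, 2 and 4. It was at 23.8, 51.6 and 70.6 CPM in Control libraries 2, 3 and 4. The lowest Dnmt3aKO library was thus more than the highest Control library, and library 4 was the highest of each genotype. The means were 263.6 ± 93.1 and 48.7 ± 23.5 CPM (SD, n = 3 each). The log2 fold change was 2.44 (SE 0.38, edgeR adjusted p = 0.0429). Between libraries of the same number, the level was 10.1-fold higher for number 2 and 5.19-fold higher for number 4.

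The lower transcript ENSMUST00000079237.6 was at 6.77, 35.4 and 22.6 CPM in Control libraries 2, 3 and 4. Its only count in Dnmt3aKO HSCs was a single one in library 1, at 0.129 CPM, with 0 in libraries 2 and 4. The ratio of Control to Dnmt3aKO counts was 391.9 (exact 95% counting interval 69.9 to 15520, edgeR adjusted p = 2.24e-04). In the 12 RNA libraries outside this comparison it was present throughout, from 17.3 to 40.7 CPM with a median of 21.2. Its Tet2KO HSC level, 25.9 ± 8.48 CPM (n = 4), was above that of Dnmt3aKO HSCs by edgeR's direct test of both mutants (adjusted p = 1.87e-05), which called 0.138% of transcripts.

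The next lower transcript, ENSMUST00000234467.1, was at 3.48, 12.8 and 8.79 CPM in Control libraries 2, 3 and 4. It had no count in any Dnmt3aKO library. Against a floor of 3 counts over the group, it was at least 49.0-fold lower in Dnmt3aKO HSCs (edgeR adjusted p = 0.0464). The third lower transcript was at 6.22, 17.7 and 17.8 CPM in the Control libraries and at 0.514, 0.425 and 0 CPM in the Dnmt3aKO libraries. Its log2 fold change was -5.32 (SE 0.84, edgeR adjusted p = 0.0429). Like ENSMUST00000079237.6, it was present in all 12 other RNA libraries, at 1.42 to 15.2 CPM.

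**Figure D1:**
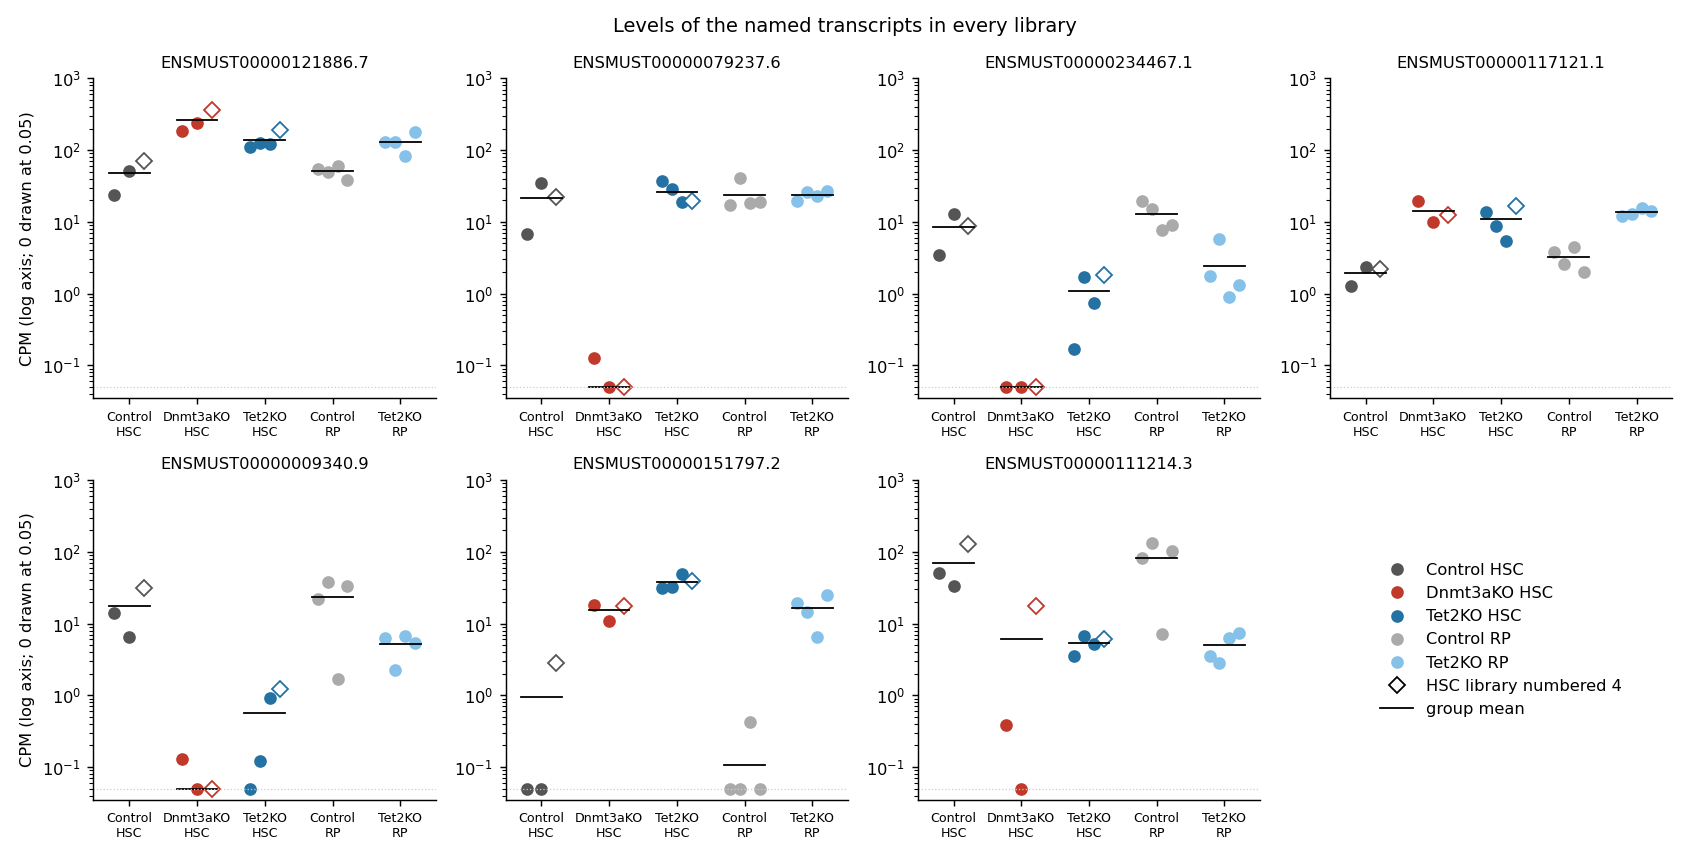
Levels (CPM, log axis, 0 drawn at 0.05) of the 7 named transcripts in every library of the 5 groups; each point is a library, open diamonds are HSC libraries numbered 4, and bars are group means. ENSMUST00000079237.6 is at or near 0 in the Dnmt3aKO libraries alone, while ENSMUST00000234467.1 is also low in both Tet2KO groups.

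Presence in one genotype with near absence in the other was rare. A total of 7 of the 26820 tested transcripts had at most 3 counts over the Dnmt3aKO libraries and at least 3 CPM in every Control library. In the opposite direction there were 5, with at most 3 counts over the Control libraries and at least 3 CPM in every Dnmt3aKO library. The edgeR test called 2 of these transcripts, both among the 7, beside 0.0149% of all tested. The rule asks for groups without overlap, which held for 7.96% of all tested and which calls favour. Of the 7, only ENSMUST00000079237.6 also had at least 1 CPM in each of the 12 other libraries. Without the libraries numbered 4, where 2 libraries of each genotype had to meet the rule, the numbers were 30 and 55 of 28525. There 32.4% of all tested did not overlap. This pattern was defined after the values were seen.

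Just outside the threshold, 7 more transcripts had an edgeR adjusted p under 0.1, 3 higher and 4 lower, again with no overlap between groups. The nearest, at an adjusted p of 0.0541, was at 5.13, 1.25 and 3.20 CPM in the Control libraries and had no count in Dnmt3aKO HSCs. The highest-expressed of these 7 transcripts in Dnmt3aKO HSCs was at 26.3, 29.1 and 11.8 CPM in libraries 1, 2 and 4. In the Control libraries it was at 2.38, 0.313 and 3.00 CPM, a log2 fold change of 3.57 (edgeR adjusted p = 0.0652). Under an adjusted p of 0.2 there were 37, 15 higher and 22 lower, of which 36 did not overlap, against 7.96% of all tested. Without the libraries numbered 4 there were 8 under 0.1 (5 higher, 3 lower) and 87 under 0.2 (54 higher, 33 lower).

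With all libraries, higher and lower transcripts were similar in number. An unadjusted p under 0.05 was reached by 2079 (7.75%), 1040 higher and 1039 lower. Without the libraries numbered 4 it was reached by 2596 (9.1%), and there higher transcripts were more numerous, 1428 against 1168 lower. Libraries did not overlap for 2136 (7.96%), 1040 of them higher (3.88%) and 1096 lower (4.09%) in Dnmt3aKO HSCs. Of these, 650 (2.42%) also differed at least 2-fold with a mean of at least 5 CPM in the higher group, 297 higher (1.11%) and 353 lower (1.32%). Comparing 2 libraries against 2, without number 4, gave no overlap for 9240 (32.4%), and 930 higher and 938 lower under the stricter rule. Log2 fold changes with all libraries had 10% below -1.35 and 10% above 1.36.

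The size of a difference that could be seen depended on abundance. Transcripts were split by their mean CPM over all libraries into 5 bins of 5364. In the lowest bin, at 0.321 to 1.44 CPM, 53.8% differed at least 2-fold, and in the highest, above 21.9 CPM, 4.05%. In the next to highest bin, at 6.30 to 21.9 CPM, lower transcripts prevailed among those past 2-fold, 523 against 309 higher. These counts include library 4, with few transcripts detected in Dnmt3aKO HSCs, and its part in them was not tested. The 4 called transcripts fell in the 3 most abundant bins. The median SE of the log2 fold change was 1.52 in the lowest bin and 0.35 in the highest. Spread was set side by side over pairs of libraries, so that n was equal. The median SD of log2 CPM was 0.49 for Dnmt3aKO libraries 1 and 2, and 0.66 and 0.71 for the pairs that hold library 4. For Control it was 0.48 for libraries 2 and 3, and 0.52 and 0.56 for the pairs that hold library 4.

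**Figure D2:**
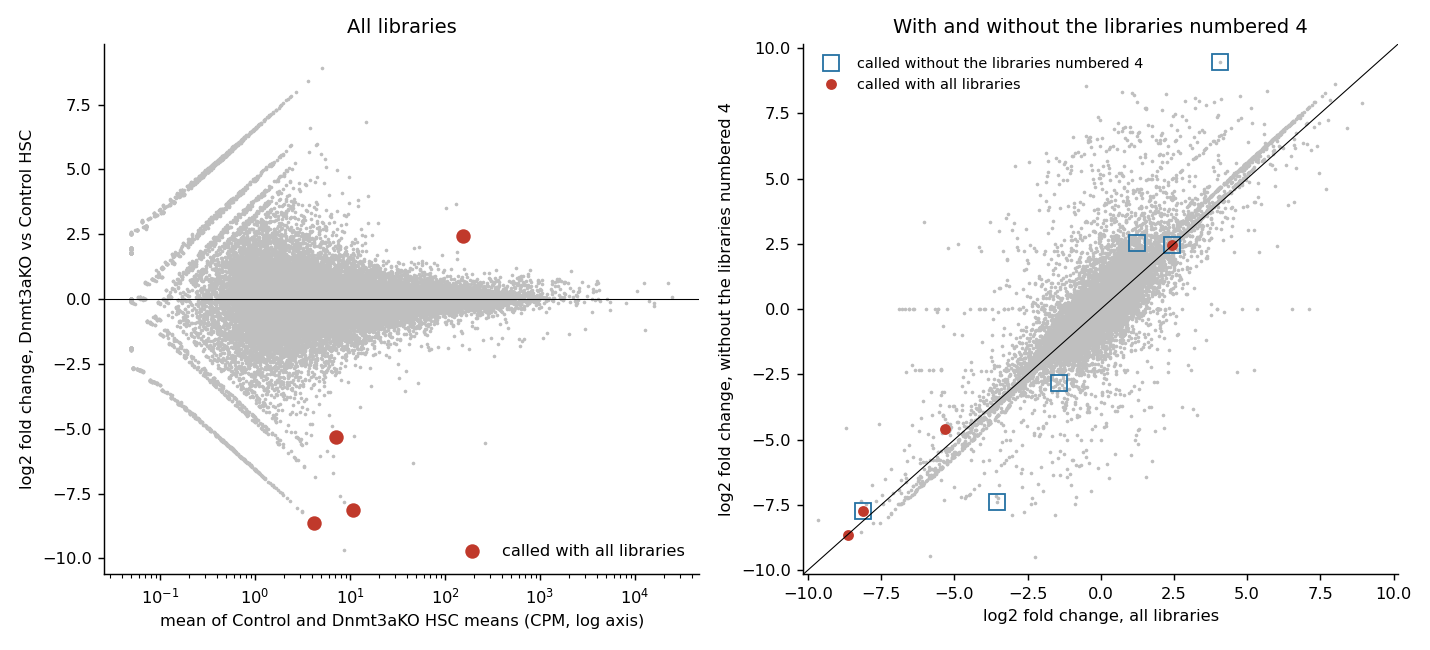
Left, log2 fold change of Dnmt3aKO against Control HSCs by mean level (CPM, log axis); right, the same fold changes with all libraries (x axis) and without the HSC libraries numbered 4 (y axis). Grey points are tested transcripts, red points the 4 called with all libraries and blue squares the 6 called without number 4; the spread narrows with abundance and 2 of the calls are shared.

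Transcripts that differ from Control HSCs in both mutants were sought with a contrast of the mean of Dnmt3aKO and Tet2KO HSCs against Control HSCs, in the same edgeR fit. It called 17 transcripts (0.0634%), 9 higher and 8 lower. For 11 of these, 5 higher and 6 lower, the Dnmt3aKO difference alone had the same direction and an unadjusted p under 0.05. ENSMUST00000079237.6 is one of these 11, although its Tet2KO level lay near Control (log2 fold change 0.26, SE 0.47). In the other 6 the Dnmt3aKO log2 fold change lay between -0.23 and 1.30, and the Tet2KO one was at least 5.50 in size. Tet2KO against Control HSCs called 0.198% of all transcripts, 12 of the 17 among them. Both mutants are set against the same 3 Control HSC libraries, so their differences from Control are not independent of each other.

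Control libraries were separate from every library of both mutants for 8 of the 17, against 1.38% of all tested transcripts. In 5 of the 8, 2 higher and 3 lower, the mean level was graded, with Tet2KO HSCs between Control and Dnmt3aKO HSCs. In the rest of the 8 the order was the other one, with the Tet2KO mean beyond the Dnmt3aKO mean. The lower transcript among that rest had means of 56.1 CPM in Control, 21.8 in Dnmt3aKO and 3.72 in Tet2KO HSCs. It was called between the mutants (edgeR adjusted p = 0.0433). No share of either order over all transcripts is set beside these counts. The grading is an order of means. None of the 5 was called in the direct test of Dnmt3aKO against Tet2KO HSCs (edgeR adjusted p from 0.145 to 0.86). The 2 higher ones are given here, with the 2 lower ones of largest ratio of Control to Dnmt3aKO level, where a group with no count was set to the floor of 3 counts. That order includes lower bounds, and on the fitted log2 scale of the Dnmt3aKO difference the lower transcript not given here lay between those given.

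ENSMUST00000121886.7 was at 110, 128, 124 and 191 CPM in Tet2KO libraries 1 to 4, above every Control library. Only Tet2KO library 4 lay above the lowest Dnmt3aKO library, by 191 to 184 CPM. Its Tet2KO mean was 138 ± 35.8 CPM, a log2 fold change from Control of 1.50 (SE 0.35, edgeR adjusted p = 0.0979). That difference missed the threshold, and so did the direct test of Dnmt3aKO against Tet2KO HSCs (log2 fold change 0.93, SE 0.33, edgeR adjusted p = 0.293). The contrast of both mutants was called (log2 fold change 1.97, SE 0.34, edgeR adjusted p = 0.0302).

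ENSMUST00000117121.1 was at 1.28, 2.35 and 2.20 CPM in Control libraries 2, 3 and 4. It was at 19.7, 9.99 and 12.6 CPM in Dnmt3aKO libraries 1, 2 and 4, and at 13.9, 8.71, 5.35 and 16.5 CPM in Tet2KO libraries 1 to 4. Both mutants lay above Control and overlapped each other. The log2 fold change from Control was 2.85 in Dnmt3aKO (SE 0.52, edgeR adjusted p = 0.0708) and 2.50 in Tet2KO HSCs (SE 0.50, edgeR adjusted p = 0.0412). Neither mutant was distinguished from the other (log2 fold change 0.35, SE 0.44, edgeR adjusted p = 0.86).

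ENSMUST00000234467.1, absent from Dnmt3aKO HSCs, was at 0.168, 1.69, 0.738 and 1.81 CPM in Tet2KO HSC libraries 1 to 4. All lay below the 3.48 CPM of the lowest Control library. The contrast of both mutants had an edgeR adjusted p of 0.0101, and Tet2KO alone against Control one of 0.148. The direct test of Dnmt3aKO against Tet2KO HSCs had one of 0.145.

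ENSMUST00000009340.9 was at 14.1, 6.42 and 31.6 CPM in Control libraries 2, 3 and 4. It had 1 count over the Dnmt3aKO libraries, and was at 0, 0.121, 0.922 and 1.21 CPM in Tet2KO libraries 1 to 4. The libraries of both mutants overlapped, and the direct test did not tell the mutants apart (edgeR adjusted p = 0.479). The ratio of Control to Dnmt3aKO counts was 287.7 (exact 95% counting interval 51.2 to 11400). Dnmt3aKO alone missed the threshold (edgeR adjusted p = 0.0652). Tet2KO alone passed it, with a log2 fold change of -4.91 (SE 0.96, edgeR adjusted p = 0.0367), as did the contrast of both mutants (edgeR adjusted p = 0.00571).

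RPs of Control and Tet2KO mice share no library with the Dnmt3aKO and Control HSCs. They give a reading of Tet2 loss that is free of the shared controls. Whether HSCs and RPs of a genotype came from the same mice is not known from the labels. ENSMUST00000121886.7 was at 130.7 ± 40.3 CPM in RPs without Tet2, against 50.6 ± 8.83 CPM in Control RPs (n = 4 each). In the same order, ENSMUST00000117121.1 was at 13.7 ± 1.37 and 3.21 ± 1.11 CPM, and ENSMUST00000234467.1 at 2.44 ± 2.25 and 12.9 ± 5.50 CPM. The libraries of both RP groups did not overlap for these 3. ENSMUST00000009340.9 was at 5.16 ± 2.04 CPM in RPs without Tet2, against 23.8 ± 16.3 CPM in Control RPs, where library c lay at 1.69 CPM, below all Tet2KO RPs. These 4 transcripts were named because their Tet2KO HSC mean lay between those of Control and Dnmt3aKO HSCs. Their Tet2KO RP mean lay on the same side of Control. This reads the loss of Tet2 again in other cells, and is no separate reading of the Dnmt3aKO difference. None passed the threshold in RPs, where 0.134% of all transcripts did, with edgeR adjusted p of 0.153, 0.0741, 0.594 and 1 in this order. In contrast, ENSMUST00000079237.6 had near equal means, 24.0 ± 3.50 CPM without Tet2 and 23.9 ± 11.2 CPM in Control RPs.

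The same reading was made for longer lists. Of the 100 transcripts with the lowest p among those higher in Dnmt3aKO HSCs, 68 were higher in Tet2KO than in Control RPs. Over all tested transcripts with a higher level in Dnmt3aKO HSCs this share was 52.3%. Of the 100 lowest p among transcripts lower in Dnmt3aKO HSCs, 46 were lower in Tet2KO RPs, near the 47.7% of all those lower. With lists ranked without the HSC libraries numbered 4, 66 higher and 47 lower transcripts had the same direction. The RP and Tet2KO HSC libraries entered the filter and the estimate of spread of these rankings. With a ranking from the HSC libraries alone, 69 of 100 higher transcripts were higher in Tet2KO RPs, against 50.3% of all those higher. Of 100 lower ones, 44 were lower, against 49.2%. The Tet2KO HSC libraries were still in that filter and spread. A transcript can thus have passed the filter through Tet2KO HSCs, the genotype read in the RPs. These shares are descriptions, since transcripts are not replicates and several can belong to 1 gene.

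**Figure D3:**
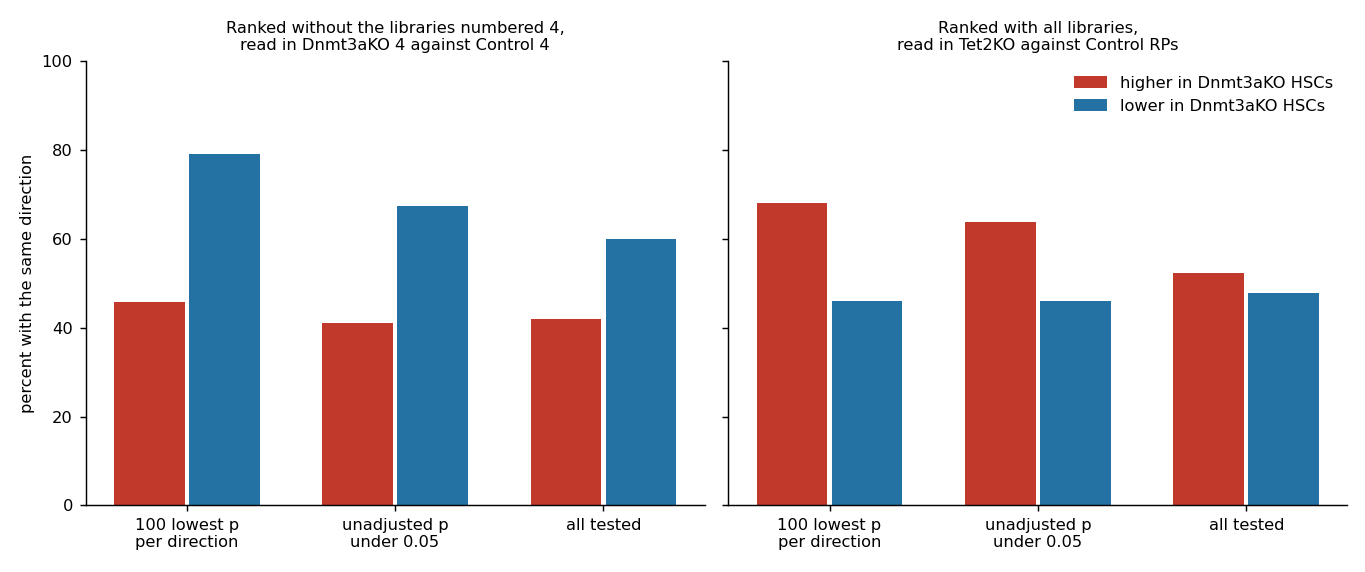
Percent of transcripts with the same direction as in Dnmt3aKO HSCs (bars from 0), for lists ranked by p and for all tested transcripts, read in libraries outside the comparison ranked: left, Dnmt3aKO library 4 against Control library 4; right, Tet2KO against Control RPs, which entered the ranking only through the filter and the estimate of spread. Transcripts lower in Dnmt3aKO HSCs stand above all tested on the left (79.1% against 59.9%), and higher ones on the right (68% against 52.3%).

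Without the HSC libraries numbered 4, libraries 1 and 2 of Dnmt3aKO HSCs were compared with libraries 2 and 3 of Control HSCs. The edgeR test then called 6 of 28525 transcripts (0.021%), 3 higher and 3 lower, and 2 of the 4 earlier calls were among them. ENSMUST00000121886.7 had a log2 fold change of 2.47 (SE 0.38, edgeR adjusted p = 0.0375). ENSMUST00000079237.6 kept a ratio of 276.3 (exact 95% counting interval 49.2 to 10960, edgeR adjusted p = 0.0141). ENSMUST00000234467.1 lost its call (edgeR adjusted p = 0.157), still with no count in Dnmt3aKO HSCs. The third lower transcript lost it too, at a log2 fold change of -4.61 (SE 0.90, edgeR adjusted p = 0.157). When only the 7 HSC libraries not numbered 4 were fitted, edgeR called 0, with an unadjusted p under 0.05 for 1774.

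Of the 4 transcripts gained, the largest change in each direction is named here, chosen after the values were seen. ENSMUST00000151797.2 had no count in Control libraries 2 and 3 and 2.80 CPM in Control library 4. It was at 18.1, 10.8 and 17.3 CPM in Dnmt3aKO libraries 1, 2 and 4. Without number 4 it was at least 57.4-fold higher in Dnmt3aKO HSCs (edgeR adjusted p = 0.0234), and with all libraries its adjusted p was 0.235. Its mean was higher still in Tet2KO HSCs, at 38.2 ± 8.46 CPM. The direct test of Dnmt3aKO against Tet2KO HSCs did not call it (log2 fold change -1.30, SE 0.77, edgeR adjusted p = 0.575). In RPs it was at 16.2 ± 7.74 CPM in Tet2KO and had 2 counts over the 4 Control libraries, a ratio of 176.5 (exact 95% counting interval 48.5 to 1463, edgeR adjusted p = 0.00321).

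ENSMUST00000111214.3 was at 50.0, 33.6 and 127 CPM in Control libraries 2, 3 and 4, and at 0.385, 0 and 17.7 CPM in Dnmt3aKO libraries 1, 2 and 4. Library 4 was the highest of each genotype, and the groups did not overlap with it. Without number 4 the ratio of Control to Dnmt3aKO counts was 170.9 (exact 95% counting interval 58.1 to 831.6, edgeR adjusted p = 0.0449), and with all libraries the adjusted p was 0.465. It was at 5.40 ± 1.40 CPM in HSCs and 5.05 ± 2.23 CPM in RPs of Tet2KO mice, and at 81.4 ± 53.5 CPM in Control RPs. Control RP library c lay at 7.19 CPM, below the 7.47 CPM of Tet2KO RP library d. Tet2KO against Control missed the threshold in HSCs (edgeR adjusted p = 0.152) and in RPs (edgeR adjusted p = 0.21). The other gained transcripts, 1 higher and 1 lower, were at 35.2 and 37.9 CPM and at 93.7 and 57.8 CPM in Control and Dnmt3aKO library 4. There the difference was smaller than between the other libraries.

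Library 4 of Dnmt3aKO and of Control HSCs can also be read as a pair that took no part in this ranking. All 6 calls made without them had the same direction between these libraries, and 4 of the 6 at least 2-fold, on a log2 scale with 0.5 CPM added. Of the 100 lowest p among transcripts lower in Dnmt3aKO libraries 1 and 2, 91 differed within number 4 and 72 of those (79.1%) were lower, against 59.9% of all tested transcripts in that direction. Of the 100 among higher transcripts, 81 differed and 37 (45.7%) were higher, near the 41.8% of all tested. Dnmt3aKO library 4 held counts for fewer transcripts than Control library 4, and the part of this in the difference between directions was not tested.

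The contrast of both mutants called 26 transcripts (0.0911%) without the libraries numbered 4, 11 of the 17 among them. ENSMUST00000234467.1, ENSMUST00000009340.9 and ENSMUST00000121886.7 kept their calls, at edgeR adjusted p of 0.0289, 0.0317 and 0.0248. ENSMUST00000117121.1 lost its call, at an adjusted p of 0.0935. Leaving out only Dnmt3aKO library 4 gave 47 calls, which held all 17.

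The number of Dnmt3aKO calls also moved with other single libraries. Without Control library 3, edgeR called 1 transcript, and without Dnmt3aKO library 4 it called 2. Tet2KO HSC libraries enter this comparison only through the filter and the estimate of spread, and the count was 1 without Tet2KO library 2 or 3 and 2 without library 4. ENSMUST00000079237.6 was called in 19 of 25 alternatives, ENSMUST00000121886.7 in 14, ENSMUST00000234467.1 in 8, and ENSMUST00000117121.1 and ENSMUST00000009340.9 in 4 each. None of the 5 changed direction in any of the 25. The 5 were named for libraries without overlap, and all 25 reuse those libraries or part of them. Their directions were therefore close to fixed.

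**Figure D4:**
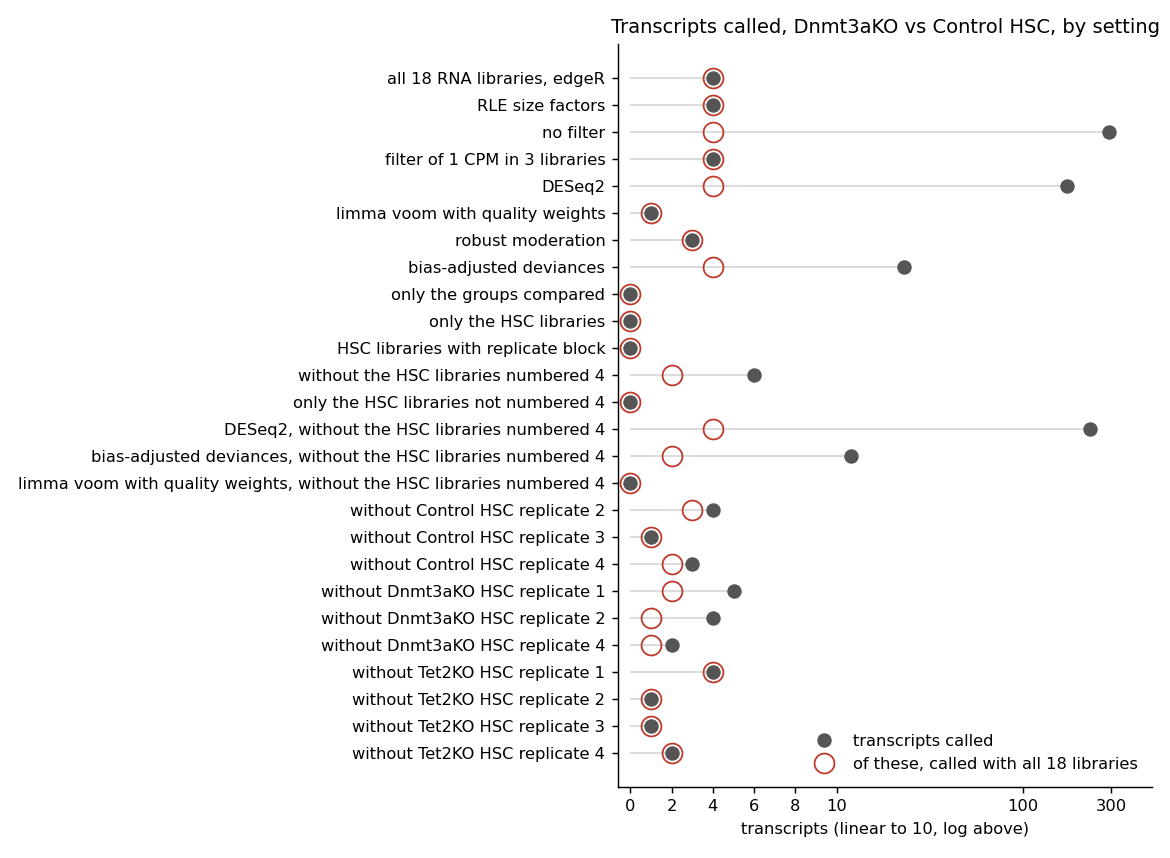
Number of transcripts called in Dnmt3aKO against Control HSCs under each setting (x axis, linear to 10 and logarithmic above); filled points are all calls and open red circles those among the 4 called with all 18 libraries. Calls range from 0, in the edgeR fits of fewer groups and in limma voom without number 4, to 291 without a filter on low counts.

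Other tests of the same 26820 transcripts called other numbers. DESeq2 called 174 (0.663% of those it adjusted), 87 higher and 87 lower, with all 4 edgeR calls among them. Libraries did not overlap for 134 of these 174, against 7.96% of all tested, and calls from the same libraries favour such transcripts. Control HSCs had no count for 23 of them and Dnmt3aKO HSCs for 18, and 7 had over 90% of the counts of the higher group in 1 library. Library 4 was the highest of its group for 44 of the 87 higher and 29 of the 87 lower. No share over all transcripts is set beside these, so they are descriptions only. The edgeR method with bias-adjusted deviances called 23 (0.0858%), 15 higher and 8 lower, again with the 4 among them. Of the 23, 22 were also called by DESeq2 and 22 did not overlap, beside the same 7.96% of all tested. The transcript with the lowest p of the 23 was at 0, 0.157 and 0.400 CPM in the Control libraries and at 6.68, 10.4 and 12.2 CPM in the Dnmt3aKO libraries. It stayed at or below 0.604 CPM in Tet2KO HSCs. With limma voom and a weight for each library, ENSMUST00000121886.7 was the only transcript called (0.00373%), and Dnmt3aKO library 4 had the lowest weight of the 18, at 0.265. Without the libraries numbered 4, DESeq2 called 231, with the 4 among them, and bias-adjusted deviances 12, with 2 of the 4. There limma voom called 0, with 1731 at an unadjusted p under 0.05.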

How the data were processed

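RNA of sorted cells was made into libraries with a kit for very small inputs, per the labels. The authors deposited raw read counts per Ensembl transcript (138835 transcripts, 36 columns). Tools named in the submitters' processing notes include HTSeq 0.8.0, featureCounts, STAR 2.0.4 and edgeR 3.9, with build mm10. The counting tool, its strand option and how reads shared between transcripts were handled are not given there, so counts of transcripts with shared exons, near-identical copies or antisense partners are uncertain. Of the columns, 18 matched samples and 18 were not used. HSC columns carry genotype and number; RP columns were matched to their group only and are lettered in column order. ATAC-seq samples were not analysed here.

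Transcripts passing filterByExpr (minimum count 10, minimum total 15) were kept (98.9% of counts), scaled by TMM and fitted with edgeR 4.0.16 (R 4.3.3) over all 18 libraries, with no term but group. The script was tested on simulated data. Where a group had no count, folds are bounds against 3 counts over the group; with 1 to 3 counts, exact 95% intervals are given, for counting error alone, because the reads carry no molecular identifiers. Alternatives used DESeq2 1.42.0 and limma 3.58.1. Named transcripts passed the threshold without overlap at 5 CPM or more, 2 per direction with the largest fold, for the Dnmt3aKO contrast and for graded levels in the contrast of both mutants; 2 others were added as stated. Sums per gene, marker lists and the rules that need gene names were not run. Members, lists and rules were chosen with earlier results of these data known.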

Additional observations from a re-analysis of the deposited data

Results flagged for a closer look

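The effects of the 2 mutants on ENSMUST00000079237.6 differed. Its level in Dnmt3aKO HSCs was lower than in Tet2KO HSCs by a log2 fold change of -8.40 (edgeR adjusted p = 1.87e-05). Control libraries entered this test only through the filter, the scaling and the estimate of spread. The transcript was named for its near absence in these same Dnmt3aKO libraries, so the test partly repeats that choice. It lay lower in all 3 Dnmt3aKO libraries than in all 4 Tet2KO libraries. In Control RPs the same transcript was at 40.7 CPM in library b, far from the 17.3 to 19.0 CPM of the other 3 libraries. ENSMUST00000151797.2 was at 0.423 CPM in Control RP library c, which rests on 2 counts, and had no count in the other 3. Groups of 4 libraries were looked at for an outlying library in 21 cases, of which chance flags about 1 in 20. That rate does not apply to ENSMUST00000151797.2, since a lone library with counts beside libraries tied at no count is always flagged.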

How the results depend on the processing

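The 4 Dnmt3aKO calls were all made with RLE size factors and with a filter of 1 CPM in 3 libraries, and 3 of them with robust moderation. The number of calls moved to 291 without a filter, 174 with DESeq2, 23 with bias-adjusted deviances (added after seeing the data) and 1 with limma voom and quality weights. It was 0 in edgeR fits of only the groups compared, of the HSC libraries, of the HSC libraries with replicate block, and of the HSC libraries not numbered 4, where 492, 1072, 1181 and 1774 transcripts had an unadjusted p under 0.05. These fits have fewer libraries and test fewer transcripts. Leaving out 1 library gave 1 to 5 calls, the Tet2KO ones added after seeing the data. The 17 calls of the contrast of both mutants became 642 without a filter, 238 with DESeq2, 43 with bias-adjusted deviances and 26 without the HSC libraries numbered 4. They became 2 with only the groups compared, which are the HSC libraries, 2 with replicate block, and 8 with only the HSC libraries not numbered 4; leaving out 1 library gave 12 to 47. Without the libraries numbered 4 (added after seeing the data), DESeq2, bias-adjusted deviances and limma voom with quality weights called 231, 12 and 0 for Dnmt3aKO and 376, 42 and 5 for both mutants. The cause was not tested. The replicate block was not taken as a pairing, because outside number 4 no pair of equal number had deviations from the group means that correlated over 0.1. Of 8 pairs of equal number 3 did, all number 4, at 0.20 to 0.25. Pairs of unequal number reached at most 0.14. The number 4 libraries thus went together across genotypes, and the cause of this was not tested. In all, 5 of 10 libraries correlated best with their own number. The planned fit with the earlier quasi-likelihood method is the one used throughout, the default of edgeR 4.0.16, and sums per gene were not run. Below 1.44 CPM the median SE was 1.52 on the log2 scale, against 0.35 above 21.9 CPM; the part of depth in this was not tested.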
